A study of Homo sapiens with 12 samples.

Results

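The integrated stress response was followed through 10 genes in HT-29 cells, an established human colon adenocarcinoma line. The set holds the transcription factors ATF4, DDIT3 and CEBPB, the feedback regulators PPP1R15A and TRIB3, the mTORC1 repressors SESN2 and DDIT4, the enzymes ASNS and CHAC1, and the receptor VLDLR. The genes were taken by symbol from each of the 6 comparison tables, where all 10 of 10 were listed among 26485 genes. All 10 passed a filter of a mean of at least 10 normalized reads over the libraries, as did 11706 genes in all. Treatment lasted 8 h in each group, and the control cultures received DMSO, the vehicle. A second group received TNFα (10 ng/ml). The third, TSZ, received that dose of TNFα together with 50 nM of SM-164, a Smac mimetic directed at the IAP proteins, and 20 μM of zVAD, which blocks caspases. The fourth group, TSZ+Nec-1s, received TSZ and 10 μM of Nec-1s, an inhibitor of the RIPK1 kinase. TSZ is used to trigger necroptosis, a regulated necrosis that runs through RIPK1, RIPK3 and MLKL. The study asked which transcripts changed in cells treated in this way and which of those changes Nec-1s prevented. PolyA RNA was sequenced in 12 libraries, 3 per group, and whether a group's libraries stem from separate cultures is not given in the labels, so p-values reflect a spread between libraries that may be technical.

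In the integrated stress response, kinases that sense endoplasmic reticulum stress, amino acid shortage, double-stranded RNA or heme shortage phosphorylate the translation factor eIF2α. General protein synthesis then falls, while the ATF4 mRNA, which carries short upstream reading frames, is translated more. ATF4 protein activates genes for amino acid supply and stress handling, among them DDIT3, which encodes the transcription factor CHOP. ATF4 and CHOP in turn raise PPP1R15A (GADD34), which directs a phosphatase to eIF2α and closes the loop. The libraries measured mRNA, so neither eIF2α phosphorylation nor ATF4 protein was seen here.

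ATF4 pairs with C/EBP proteins on a composite DNA element, and 2 of the 10 genes carried its core in a window from 250 bases before to 50 bases after a RefSeq start site (GRCh38.p14). The letters searched were TGATGNAA on either strand, the core of the C/EBP-ATF response element. They stood in 1270 of 35116 start-site windows (3.62%) and in 2 of the 16 windows of the 10 genes. The second motif was the cyclic AMP response element TGACGTCA, present in 649 windows (1.85%) and in that of PPP1R15A. The third, the C/EBP palindrome TTGCGCAA, lay in 53 windows (0.15%) and in none of the 16, which says only that these letters are not in these windows. The matches are shown because they sit at the starts of genes whose reads moved together, each 5′ to 3′ on the gene's strand with the motif in capitals and 11 bases on either side.
ASNS: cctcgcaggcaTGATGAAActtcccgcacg
CHAC1: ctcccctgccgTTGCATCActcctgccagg
PPP1R15A: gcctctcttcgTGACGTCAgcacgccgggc
The ASNS stretch is chr7:97872458-97872487 on the minus strand, 79 to 50 bases before a start site. That of CHAC1 is chr15:40953251-40953280 on the plus strand, 220 to 191 bases before its start, and holds the element on the reverse strand. The PPP1R15A stretch is chr19:48872352-48872381 on the plus strand, 69 to 40 bases before its start. All 3 stretches lie before the RefSeq start used and also within an exon of another annotated transcript of the same gene. They are letter matches, and binding was not measured.

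The libraries held an estimated 8842436 to 12727030 reads each, and normalized reads are reads divided by the DESeq size factor of the library, which ranged from 0.84 to 1.26. The deposited tables give group means, from which the whole reads of each library were recovered. The 3 libraries of a group are called a, b and c, and a letter pairs nothing between groups. Some libraries stood apart within their group by a trend with the GC content of transcripts over 11503 genes. The Spearman rho of a gene's deviation from its group mean with GC content was -0.789 in DMSO library b, -0.736 in TSZ library a and -0.593 in TNFα library a, whereas it lay between -0.141 and 0.225 in the TSZ+Nec-1s libraries. Of the 10 genes, 8 had their lowest DMSO value in library b, 8 their lowest TSZ value in library a, and 6 their lowest TNFα value in library a. Values without these 3 libraries are therefore given beside the main comparisons. Of 12 colon epithelium markers, 10 could be solved to whole reads in each group. Their sum, led by KRT19, was 20806 to 24002 normalized reads in DMSO, 21845 to 24101 in TNFα, 40241 to 41918 in TSZ and 23976 to 24470 in TSZ+Nec-1s. CDX1 of this list was at 0 in DMSO and TSZ+Nec-1s, and CDH17 in TSZ+Nec-1s. CDX2 (group means of 2.24 to 6.77) and GPA33 (1.53 to 3.21) were near 0 in every group. VIL1 did not follow the sum, with means of 1105 in DMSO and 995 in TSZ. The means of KRT19, KRT20, EPCAM, CDH1 and LGALS4 were higher in TSZ than in DMSO. The leukocyte markers PTPRC and CD3E were at 0 in every library. The leukocyte list was summed over 7 of its 8 markers and was led by CD68 in TSZ. Its sum was 221 to 263 in DMSO, 338 to 396 in TNFα, 630 to 756 in TSZ and 406 to 412 in TSZ+Nec-1s. The endothelial marker CDH5 was at 0 in every library, and the fibroblast and endothelium list, led by COL1A1, summed to 56.7 to 202 in DMSO, 47.2 to 63.1 in TNFα, 213 to 496 in TSZ and 45.1 to 60.8 in TSZ+Nec-1s. The marker sums thus moved with TSZ, and their part in the results was not tested.

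**Figure D1:**
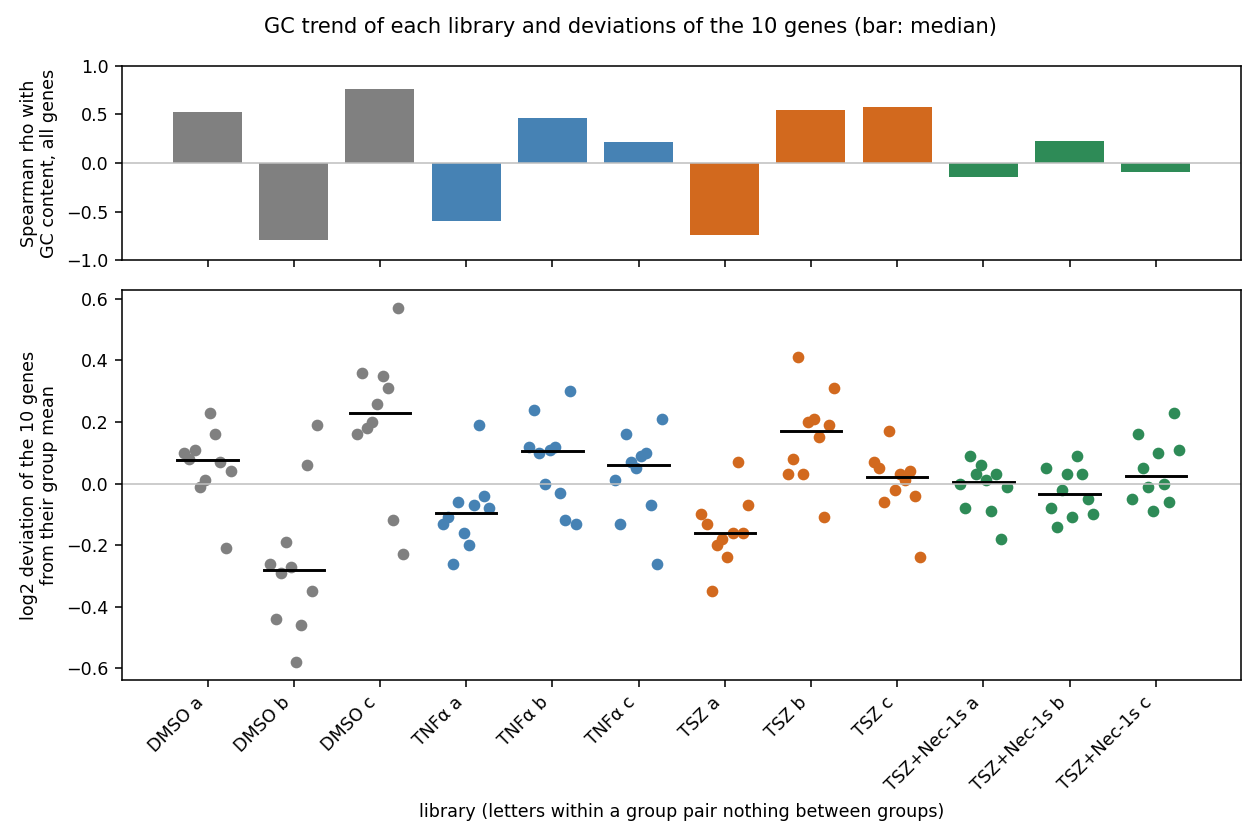
The upper panel plots, for each of the 12 libraries, the Spearman rho between a gene's deviation from its group mean and GC content over 11503 genes, and the lower panel plots the log2 deviation of each of the 10 genes from its group mean, with the median as a bar. DMSO library b had the lowest rho, -0.789, and 8 of the 10 genes had their lowest DMSO value there.

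ATF4, the transcription factor at the centre of the response, rose 2.87-fold by the means with TSZ, and its TSZ+Nec-1s libraries lay within the DMSO range. ATF4 spans chr22:39519695-39522683 (hg38, plus strand) and has 3 exons. Its normalized reads were 4738, 3683 and 4944 in the DMSO libraries, 4246, 5054 and 4691 in TNFα, 11922, 13033 and 13424 in TSZ, and 4578, 4735 and 4402 in TSZ+Nec-1s. The 3 TSZ libraries were all above the other 9, and the other 3 groups overlapped. The log2 fold change of TSZ against DMSO was 1.53 ± 0.11 (SE; adjusted p = 1.3e-07, limma).

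DDIT3, which encodes CHOP, started far lower and rose further. Its normalized reads were 119, 83.0 and 144 in DMSO, 111, 141 and 109 in TNFα, 638, 734 and 720 in TSZ, and 111, 111 and 131 in TSZ+Nec-1s. No TSZ library overlapped another group, and the TNFα and TSZ+Nec-1s libraries lay within the DMSO range. The log2 fold change of TSZ against DMSO was 2.62 ± 0.17 (SE; adjusted p = 5.4e-08, limma), a ratio of means of 6.04. DDIT3 lies at chr12:57516588-57521737 on the minus strand with 4 exons, and 355 of its exonic bases (27.2%) are shared with MARS1 on the opposite strand. The authors counted without regard to strand, so reads within this stretch could not be assigned to either gene. DDIT3 also shares 105 exonic bases (8.0%) with an unnamed protein-coding gene on the same strand and 58 (4.4%) with MBD6 on the opposite strand. The unnamed gene was not found among the genes listed by the authors, whereas MARS1 and MBD6 were.

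CEBPB, a basic leucine zipper factor of inflammation that can pair with ATF4, rose in each of the 3 treatments. Its normalized reads were 290, 219 and 304 in DMSO, 472, 606 and 632 in TNFα, 2353, 3995 and 2893 in TSZ, and 730, 622 and 709 in TSZ+Nec-1s. All libraries of the 3 treated groups were above all DMSO libraries, and those of TNFα and TSZ+Nec-1s overlapped each other. The log2 fold change was 3.48 ± 0.20 (SE; adjusted p = 2.0e-08) for TSZ against DMSO, with 3.52 without the 3 libraries of low rho. TSZ library b was the highest of its group and TSZ library a the lowest. The gene is a single exon at chr20:50190830-50192668 (plus strand), and 231 of its bases (12.6%) are shared with the antisense RNA CEBPB-AS1.

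PPP1R15A, the GADD34 subunit that brings protein phosphatase 1 to eIF2α, had the highest fold change of the 10 genes. Its normalized reads were 482, 426 and 555 in DMSO, 993, 1033 and 1084 in TNFα, 17031, 20095 and 22081 in TSZ, and 1093, 1053 and 1065 in TSZ+Nec-1s. The groups formed 3 separate tiers, with DMSO lowest, TNFα and TSZ+Nec-1s together in the middle and TSZ far above. The mean in TSZ was 40.5 times that in DMSO and 18.4 times that in TSZ+Nec-1s, with log2 fold changes of 5.34 ± 0.12 and 4.20 ± 0.11 (SE; adjusted p = 3.7e-12 and 4.1e-11). PPP1R15A lies at chr19:48872212-48876059 on the plus strand with 3 exons, and carries the cyclic AMP response element printed above.

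TRIB3, a pseudokinase that binds ATF4 and CHOP and dampens them, was called higher in TSZ and in neither of the other treatments. Its normalized reads were 907, 743 and 1078 in DMSO, 723, 873 and 833 in TNFα, 2562, 3344 and 2868 in TSZ, and 765, 752 and 691 in TSZ+Nec-1s. The TSZ libraries were all above the other 9, and the means of the TNFα and TSZ+Nec-1s libraries were below that of DMSO within overlapping ranges. The log2 fold change was 1.69 ± 0.14 (SE; adjusted p = 4.6e-07) for TSZ against DMSO. For TSZ+Nec-1s against DMSO it was -0.29 ± 0.14 (adjusted p = 0.224), and without DMSO library b it was -0.42 (adjusted p = 0.0235).

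The mTORC1 repressors DDIT4 and SESN2 both rose with TSZ. DDIT4 (REDD1) acts through the TSC complex, and SESN2 through the GATOR complexes as a leucine sensor. DDIT4 had 153, 99.9 and 170 normalized reads in DMSO, 177, 182 and 199 in TNFα, 3245, 4003 and 3646 in TSZ, and 293, 333 and 312 in TSZ+Nec-1s. Each group of DDIT4 stood apart from the other groups, in the order DMSO, TNFα, TSZ+Nec-1s and TSZ. SESN2 had 188, 107 and 205 normalized reads in DMSO, 118, 147 and 144 in TNFα, 500, 683 and 605 in TSZ, and 153, 142 and 164 in TSZ+Nec-1s. For SESN2 the TSZ libraries were separate and the other 3 groups overlapped. The log2 fold changes of TSZ against DMSO were 4.71 ± 0.16 for DDIT4 and 1.87 ± 0.20 for SESN2 (SE; adjusted p = 1.2e-10 and 6.6e-06). DDIT4 lies at chr10:72273919-72276036 (plus strand, 3 exons) and SESN2 at chr1:28259518-28282491 (plus strand, 10 exons).

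The enzymes carry the composite element printed above and moved by different amounts. CHAC1 cleaves glutathione, and ASNS makes asparagine from aspartate and is a reporter of amino acid shortage. CHAC1 had 32.4, 29.4 and 55.6 normalized reads in DMSO, 32.7, 41.4 and 28.0 in TNFα, 243, 309 and 264 in TSZ, and 35.6, 39.1 and 47.3 in TSZ+Nec-1s. It rose 6.95-fold by the means in TSZ against DMSO, from 28 to 52 reads per library in the other groups, with a log2 fold change of 2.84 ± 0.22 (SE; adjusted p = 3.5e-07). ASNS had 579, 575 and 509 normalized reads in DMSO, 578, 465 and 484 in TNFα, 1042, 923 and 1019 in TSZ, and 655, 655 and 617 in TSZ+Nec-1s. Its libraries in TSZ were the highest, those in TSZ+Nec-1s lay between them and all DMSO and TNFα libraries, and its log2 fold change of TSZ against DMSO was 0.84 ± 0.11 (SE; adjusted p = 2.5e-05). ASNS (chr7:97851677-97872542, minus strand, 13 exons) shares 2415 exonic bases (49.3%) with an unnamed long non-coding RNA on the same strand, whereas CHAC1 (chr15:40952962-40956512, plus strand, 3 exons) shares none. The RNA that overlaps ASNS was not found among the genes listed by the authors.

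VLDLR, a lipoprotein receptor described as a target of the PERK and ATF4 branch, moved least. Its normalized reads were 36.0, 39.9 and 29.9 in DMSO, 32.7, 31.8 and 40.0 in TNFα, 58.8, 76.7 and 52.4 in TSZ, and 42.7, 39.9 and 46.3 in TSZ+Nec-1s. The TSZ libraries were above the other 9, by a small margin, on 44 to 68 reads each. The log2 fold change was 0.81 ± 0.21 (SE; adjusted p = 0.0057) for TSZ against DMSO and 0.53 ± 0.19 (adjusted p = 0.0423) against TSZ+Nec-1s. With reads scaled to the library total both calls were lost, at 0.40 (adjusted p = 0.11) and 0.20 (adjusted p = 0.404). VLDLR lies at chr9:2621182-2660056 on the plus strand with 19 exons, of which 260 bases (1.6%) are shared with VLDLR-AS1. A further overlap of 1100 bases (6.7%) is with an unnamed long non-coding RNA on the opposite strand. This unnamed RNA was not found among the genes listed by the authors.

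**Figure D2:**
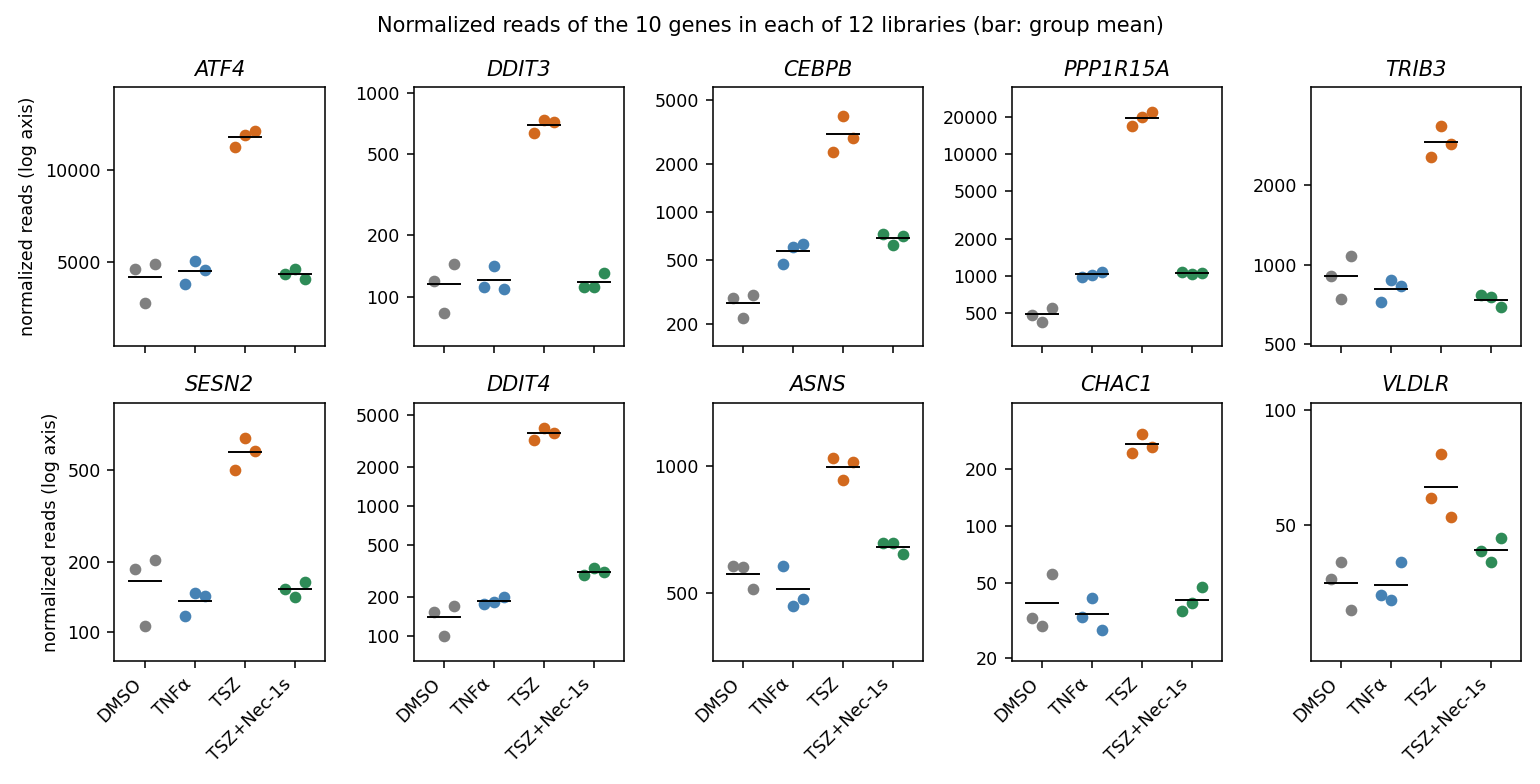
Each panel plots the normalized reads of 1 gene on a log axis in the 12 libraries, with the mean of each group of 3 as a bar. In each of the 10 panels the 3 TSZ points lie above the points of the other groups. For CEBPB, PPP1R15A, DDIT4 and ASNS the TSZ+Nec-1s points also lie above those of DMSO.

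Per kilobase of exonic length, which lets levels be compared between genes, ATF4 was the most abundant of the 10 transcripts in DMSO at 1705 ± 259 normalized reads per kb (SD, n = 3). TRIB3 followed at 276 ± 51.0, then CEBPB at 147 ± 24.8 and PPP1R15A at 142 ± 18.9, whose ranges overlapped. ASNS at 113, DDIT3 at 88.3 and DDIT4 at 66.6 each overlapped the next in the order, which ended with SESN2 at 48.2. CHAC1 at 19.1 and VLDLR at 2.14 were the lowest, each apart from the gene above it. In TSZ the order changed: PPP1R15A reached 5749 ± 741 normalized reads per kb, overlapping ATF4 at 4896 ± 298. DDIT4 at 1715 ± 179 and CEBPB at 1675 ± 455 came next with overlapping ranges, above TRIB3 at 889 ± 120 and DDIT3 at 533 ± 39.6. ASNS at 203 overlapped SESN2 at 172, which overlapped CHAC1 at 133, and VLDLR was again the lowest at 3.79. In TSZ+Nec-1s ATF4 was first again at 1750 ± 63.7, followed by CEBPB at 374 ± 31.3 and PPP1R15A at 312 ± 5.93. The authors' exon annotation may differ from the GENCODE lengths used, most of all for VLDLR, whose annotated exons sum to 16507 bases.

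Against DMSO, TSZ raised all 10 genes at an adjusted p under 0.05 in limma, 10 higher and 0 lower, and the TSZ and DMSO libraries of all 10 did not overlap. Over all genes tested, 25.9% were higher and 24.2% lower. The share of all genes without overlap was not counted, in this or the other comparisons. A count of genes without overlap therefore has no background here. The log2 fold changes of the 10 genes ranged from 0.81 to 5.34 with a median of 2.25, beside a median of -0.02 over all genes. Fewer cells of a type and less RNA per cell cannot be told apart in these bulk cultures, and each value is a share of the RNA left in the culture. The median shift of all genes depends on the scaling: with reads scaled to the library total it was -0.43, and the genes called were 1644 higher and 5687 lower in place of 3029 and 2834. Under that scaling PPP1R15A had a log2 fold change of 4.93, DDIT4 4.29, CEBPB 3.07, CHAC1 2.43, DDIT3 2.21, SESN2 1.46, TRIB3 1.28, ATF4 1.12 and ASNS 0.43, all called higher. Without the 3 libraries of low rho all 10 genes were called higher as well, with log2 fold changes of 1.45 for ATF4, 2.48 for DDIT3, 1.71 for SESN2 and 4.57 for DDIT4. In that setting more of all genes tested were called too, 32.5% higher and 28.8% lower.

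All 10 genes were lower when Nec-1s was added to TSZ. In TSZ against TSZ+Nec-1s all 10 were higher in TSZ and 0 were lower, beside 22.5% higher and 19.8% lower of all genes tested. No libraries of the 10 genes overlapped between these groups, without a count over all genes beside it. The median log2 fold change was 2.06 over the 10 genes and -0.02 over all genes, or -0.35 for all genes when reads were scaled to the library total, where 1367 genes were higher and 4938 lower in place of 2636 and 2320. The differences were 4.20 ± 0.11 for PPP1R15A, 3.53 ± 0.14 for DDIT4, 2.75 ± 0.21 for CHAC1 and 2.57 ± 0.16 for DDIT3 as log2 fold changes with their SE. CEBPB differed by 2.13 ± 0.18, TRIB3 by 1.98 ± 0.14, SESN2 by 1.95 ± 0.20 and ATF4 by 1.48 ± 0.11, and their adjusted p ranged from 1.7e-07 to 6.6e-06. ASNS differed by 0.63 ± 0.10 (adjusted p = 3.6e-04), and by 0.29 with reads scaled to the library total. VLDLR was the least secure, since leaving out any library other than TSZ library c ended its call, with log2 fold changes of 0.38 to 0.65 over the 6 omissions. Without the 3 libraries of low rho all 10 genes were again called higher, with 1.53 for ATF4, 2.63 for DDIT3 and 0.57 for VLDLR. Of all genes tested 31.9% were higher and 31.1% lower in that setting. This comparison and that with DMSO share the 3 TSZ libraries.

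With Nec-1s, CEBPB, DDIT4 and PPP1R15A stayed above their DMSO levels. In TSZ+Nec-1s against DMSO 3 of the 10 genes were higher, 0 were lower and 7 did not pass. Of all genes tested 7.12% were higher and 5.77% lower. The libraries of 4 of the 10 genes did not overlap, without a count over all genes beside it. The 3 higher genes were CEBPB at a log2 fold change of 1.35 ± 0.21 (adjusted p = 9.4e-04), DDIT4 at 1.18 ± 0.18 (adjusted p = 6.1e-04) and PPP1R15A at 1.14 ± 0.13 (adjusted p = 5.1e-05). ASNS did not overlap between the groups and had 0.21 ± 0.11 (adjusted p = 0.225). The 95% interval was -0.19 to 0.29 for ATF4, -0.37 to 0.48 for DDIT3, -0.56 to 0.40 for SESN2 and -0.48 to 0.67 for CHAC1, so changes within those bounds are not excluded. The median was 0.16 over the 10 genes and 0.01 over all genes. Without the 3 libraries of low rho, TRIB3 at -0.42 (adjusted p = 3.3e-04) and SESN2 at -0.36 (adjusted p = 0.0247) were called lower and ASNS at 0.24 (adjusted p = 0.0255) was called higher. In that setting 26.9% of all genes tested were higher and 23.1% lower, beside 4 higher and 2 lower of the 10 genes.

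**Figure D3:**
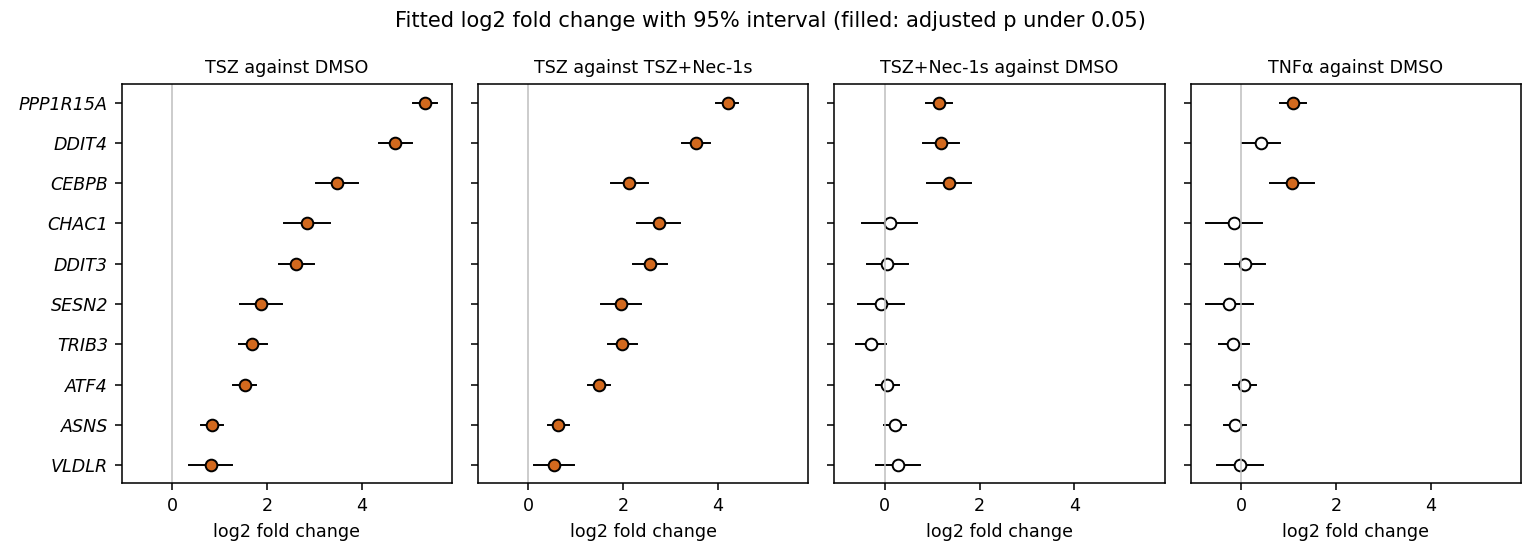
The panels plot the fitted log2 fold change of each of the 10 genes with its 95% interval in 4 comparisons, filled where the adjusted p was under 0.05. All 10 genes are filled and to the right of 0 in both panels with TSZ first, 3 genes in TSZ+Nec-1s against DMSO and 2 in TNFα against DMSO.

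TNFα without the other agents raised 2 of the 10 genes, PPP1R15A and CEBPB. Of all genes tested 3.11% were higher and 1.08% lower in TNFα against DMSO, and 0 of the 10 genes were lower. The libraries of 3 of the 10 genes did not overlap, and the share of all genes without overlap was not counted. PPP1R15A had a log2 fold change of 1.10 ± 0.13 (adjusted p = 1.7e-04), and CEBPB had 1.07 ± 0.22 (adjusted p = 0.0125). The call of CEBPB was lost without TNFα library b (1.02, adjusted p = 0.0605) or without TNFα library c (0.99, adjusted p = 0.0633). DDIT4 was the third gene without overlap, at 0.43 ± 0.19 (adjusted p = 0.298). ATF4 had 0.07 with a 95% interval of -0.17 to 0.32, and DDIT3 had 0.09 with an interval of -0.34 to 0.51. Without the 3 libraries of low rho the same 2 genes were called, PPP1R15A at 1.04 and CEBPB at 1.06. Of all genes tested 7.06% were higher and 4.02% lower in that setting. The median of the 10 genes was 0.03 in the fit to all 12 libraries.

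TSZ+Nec-1s and TNFα cultures received the same dose of TNFα, and DDIT4 was the gene of the 10 called between them. Of the 10 genes 1 was higher and 0 were lower, beside 1.09% higher and 0.256% lower of all genes tested. The libraries of 2 of the 10 genes did not overlap, again without a count over all genes. DDIT4 had a log2 fold change of 0.75 ± 0.17 (adjusted p = 0.0496), a ratio of means of 1.68, and it was not called when any 1 of the 6 libraries was left out, with adjusted p from 0.147 to 0.206. ASNS was the other gene without overlap, at 0.34 ± 0.11 (adjusted p = 0.171). PPP1R15A differed by 0.05 with a 95% interval of -0.21 to 0.31, and CEBPB by 0.28 with an interval of -0.14 to 0.70. The intervals were wider for CHAC1 (-0.34 to 0.83) and VLDLR (-0.15 to 0.76). Against TNFα, TSZ was higher for all 10 genes and lower for 0, at log2 fold changes from 0.83 for VLDLR to 4.28 for DDIT4 and a median of 2.27. No libraries of the 10 genes overlapped there, and the share of all genes without overlap was not counted. Without the 3 libraries of low rho the log2 fold changes ranged from 0.83 for VLDLR to 4.33 for DDIT4, all called higher. Of all genes tested 22.7% were higher and 21.6% lower in that comparison, or 30.2% and 25.7% without these 3 libraries.

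Of the kinases, eIF2 subunits and phosphatase partners upstream of ATF4, about as many were called in each direction as among all genes. Of 21 such genes, all tested, 6 were higher and 5 lower in TSZ against DMSO, or 2 and 11 with reads scaled to the library total. The shares over all genes were 25.9% higher and 24.2% lower, and the median log2 fold change was -0.02 for the list and for all genes. Those shares, and 22.5% and 19.8% in TSZ against TSZ+Nec-1s, are the background for the counts of the lists that follow. For counts with reads scaled to the library total the background is 14% higher and 48.6% lower against DMSO. Against TSZ+Nec-1s it is 11.7% and 42.2% with that scale. No list was tested against these shares. EIF2AK3, which encodes the endoplasmic reticulum kinase PERK, rose from a mean of 99.2 to 236 normalized reads, a log2 fold change of 1.28 ± 0.22 (adjusted p = 3.0e-04). PPP1R15B, the constitutive partner of the eIF2α phosphatase and the paralog of PPP1R15A, rose from 1109 to 4113, by 1.93 ± 0.15 (adjusted p = 4.0e-07). EIF2AK4, the amino acid sensor GCN2, fell from 298 to 186, at -0.68 ± 0.13 (adjusted p = 9.7e-04). EIF2AK4 was also lower in TSZ+Nec-1s against DMSO, at -0.46 ± 0.13 (adjusted p = 0.0292). It did not pass in TSZ against TSZ+Nec-1s, at -0.22 ± 0.14 (adjusted p = 0.22). EIF2AK2, the double-stranded RNA sensor PKR, was lower in TSZ than in TSZ+Nec-1s, at -0.72 ± 0.27 (adjusted p = 0.045). In TSZ against TSZ+Nec-1s 5 of the 21 were higher and 3 lower, or 1 and 12 with the total as scale.

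Among the other basic leucine zipper factors of the ATF and C/EBP families, ATF3 rose more than any of the 10 genes. ATF3, an early stress factor that ATF4 activates, had 25.2, 20.0 and 25.7 normalized reads in DMSO, 37.4, 32.7 and 48.0 in TNFα, 2775, 3187 and 3317 in TSZ, and 70.4, 52.1 and 47.3 in TSZ+Nec-1s. The TSZ libraries were all far above the rest, and the log2 fold change was 7.00 ± 0.22 against DMSO and 5.76 ± 0.17 against TSZ+Nec-1s (adjusted p = 7.4e-11 and 1.0e-10). CEBPD rose by 3.19 ± 0.17 against DMSO, and NFIL3, a repressor of the same superfamily, by 2.65 ± 0.18. BATF2 fell from a mean of 29.5 to 4.19 normalized reads, at -2.72 ± 0.48 (adjusted p = 4.6e-04). In all, 8 of 17 tested factors were higher and 3 lower in TSZ against DMSO (5 and 5 with the total as scale), and 8 and 2 in TSZ against TSZ+Nec-1s (6 and 4). The list median against DMSO was 0.48.

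Of 24 other genes described as stress targets of ATF4 or CHOP, 18 were tested and 14 were higher and 1 lower in TSZ against DMSO, with a median log2 fold change of 1.80. GDF15, a stress-induced secreted factor, had 456, 346 and 634 normalized reads in DMSO, 561, 664 and 678 in TNFα, 8862, 11041 and 11819 in TSZ, and 476, 398 and 497 in TSZ+Nec-1s. It followed the pattern of ATF4 and DDIT3, since the TNFα and TSZ+Nec-1s libraries overlapped those of DMSO. BBC3, the proapoptotic BH3-only protein PUMA, had 34.2, 43.1 and 58.8 normalized reads in DMSO, 68.2, 77.0 and 64.1 in TNFα, 1907, 2414 and 2398 in TSZ, and 164, 149 and 134 in TSZ+Nec-1s. In TSZ+Nec-1s BBC3 stayed above DMSO, at a log2 fold change of 1.76 ± 0.22 (adjusted p = 1.5e-04), as did PPP1R15A and DDIT4. KLHL24, a substrate adaptor for ubiquitin ligation, rose from a mean of 18.0 to 401 in TSZ against DMSO, at 4.61 ± 0.35 (adjusted p = 2.4e-07). Against TSZ+Nec-1s 12 of the 18 were higher and 0 lower, with a median of 1.43. Scaled to the library total, 12 were higher and 2 lower against DMSO, and 12 and 3 against TSZ+Nec-1s.

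ATF4 also acts on genes that supply amino acids, which were counted as synthesis, transport and tRNA charging. Of 13 genes of amino acid synthesis 11 were tested, of which 3 were higher and 5 lower in TSZ against DMSO (2 and 7 with the total as scale), and 3 and 1 in TSZ against TSZ+Nec-1s (2 and 7). Against DMSO the share higher was near the 25.9% of all genes, and the share lower was above their 24.2%. Against TSZ+Nec-1s the share lower was below the 19.8% of all genes. The list median against DMSO was -0.07, beside 0.84 for ASNS itself. ASS1, which joins citrulline to aspartate, rose by 1.85 ± 0.21 and CTH, which makes cysteine from cystathionine, by 1.35 ± 0.27 (adjusted p = 9.3e-06 and 9.4e-04). ASS1 was at 2.37 ± 0.20 in TNFα against DMSO, higher as well. PSPH, the last step of serine synthesis, fell at -1.17 ± 0.15 (adjusted p = 3.4e-05), and PSAT1, the step before it, at -0.43 ± 0.12 (adjusted p = 0.008). PSPH was also lower than in DMSO in TNFα, at -0.55 ± 0.14 (adjusted p = 0.0423), and in TSZ+Nec-1s, at -0.86 ± 0.14 (adjusted p = 0.0012). PSAT1 was named after its values were seen. PHGDH, the first step, had 0.20 ± 0.15 (adjusted p = 0.269) against DMSO and was higher than in TSZ+Nec-1s, at 0.68 ± 0.15 (adjusted p = 0.0029).

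Of 10 amino acid transporters 8 were tested, with 4 higher and 1 lower in TSZ against DMSO (3 and 4 with the total as scale) and 2 and 2 against TSZ+Nec-1s. The list median against DMSO was 0.35. SLC38A2, the neutral amino acid carrier SNAT2, had 603, 1262 and 435 normalized reads in DMSO, 1004, 625 and 658 in TNFα, 5587, 3125 and 3022 in TSZ, and 1555, 1468 and 1621 in TSZ+Nec-1s. DMSO library b and TSZ library a, which had the lowest rho with GC content, were the highest of their groups for this gene. The log2 fold change of TSZ against DMSO was 2.44 ± 0.32 for SLC38A2 and 1.74 ± 0.32 for SLC7A11, the cystine importer (adjusted p = 4.2e-05 and 5.9e-04). SLC7A11 was also higher in TSZ+Nec-1s than in DMSO, at 1.41 ± 0.32 (adjusted p = 0.0112), and did not pass in TSZ against TSZ+Nec-1s, at 0.33 ± 0.30 (adjusted p = 0.397). SLC1A4 fell at -1.02 ± 0.23 (adjusted p = 0.0024). Of 13 genes for aminoacyl-tRNA synthetases and tRNA export, all tested, 4 were higher and 0 lower against DMSO (2 and 7 with the total as scale) and 3 and 2 against TSZ+Nec-1s (0 and 8). WARS rose by 0.86 ± 0.09, GARS by 0.62 ± 0.08 and CARS by 0.56 ± 0.13 (adjusted p from 6.2e-06 to 0.0025). WARS was also higher in TNFα against DMSO, at 0.70 ± 0.09 (adjusted p = 4.5e-04). In TSZ+Nec-1s against DMSO it was at 1.10 ± 0.09 (adjusted p = 3.5e-06). GARS and CARS passed in neither of these comparisons.

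Genes of the other branches of the unfolded protein response rose in part against DMSO, in TSZ and also in TSZ+Nec-1s. Of 18 genes of the ATF6 and XBP1 branches, all tested, 8 were higher and 0 lower in TSZ against DMSO (7 and 6 with the total as scale), with a median log2 fold change of 0.28, and 4 were higher and 0 lower against TSZ+Nec-1s (4 and 12), with a median of 0.01. ERN1, the sensor IRE1α, rose by 2.45 ± 0.28, the co-chaperone DNAJB9 by 2.37 ± 0.36 and HERPUD1, a component of endoplasmic reticulum-associated degradation, by 2.10 ± 0.11 against DMSO (adjusted p from 4.4e-09 to 1.2e-04). HSPA5, the chaperone BiP, named after its values were seen, had 0.68 ± 0.07 (adjusted p = 7.2e-06) against DMSO and 0.07 ± 0.07 (adjusted p = 0.439) against TSZ+Nec-1s. In TSZ+Nec-1s against DMSO 5 of the 18 genes were higher and 0 lower, with a median of 0.41. Of all genes 7.12% were higher and 5.77% lower in that comparison. HSPA5 was at 0.61 ± 0.07 in it (adjusted p = 1.1e-04). In TNFα against DMSO 2 of the 18 were higher and 0 lower, beside 3.11% and 1.08% of all genes.

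DDIT4 and SESN2 act on the mTORC1 pathway. Of its regulators 3 of 14 tested genes were higher and 6 lower in TSZ against DMSO (1 and 9 with the total as scale). Against TSZ+Nec-1s 2 were higher and 5 lower (1 and 9). The shares of all genes were 25.9% and 24.2% against DMSO, and 22.5% and 19.8% against TSZ+Nec-1s. With the total as scale they were 14% and 48.6%, and 11.7% and 42.2%. RHEB, the GTPase that activates mTORC1, rose by 1.02 ± 0.09 (adjusted p = 1.2e-06). NPRL2, a subunit of GATOR1, fell at -0.91 ± 0.18 and WDR24, a subunit of GATOR2, at -0.83 ± 0.16 (adjusted p = 9.8e-04 and 6.6e-04). Of 9 genes of glutathione synthesis and turnover, the pathway that CHAC1 opposes, 4 were higher and 0 lower against DMSO (4 and 2 with the total as scale), and 5 and 1 against TSZ+Nec-1s (4 and 2). GCLC, the catalytic subunit of the first step, rose by 2.58 ± 0.13, its partner GCLM by 1.59 ± 0.17 and GPX4, which reduces lipid peroxides, by 0.92 ± 0.14 (adjusted p from 5.2e-09 to 1.7e-04).

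Housekeeping genes give the scale of these shifts, and 5 of 9 tested were higher and 1 lower both in TSZ against DMSO and in TSZ against TSZ+Nec-1s. With reads scaled to the library total these became 1 higher and 2 lower, and 0 and 1. Against DMSO the log2 fold change was 1.03 ± 0.10 for B2M, 0.91 ± 0.21 for YWHAZ, 0.63 ± 0.11 for RPLP0 and -0.68 ± 0.13 for TBP. The log2 fold changes of ASNS and VLDLR lay below that of B2M, and those of the other 8 genes lay above it.

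**Figure D4:**
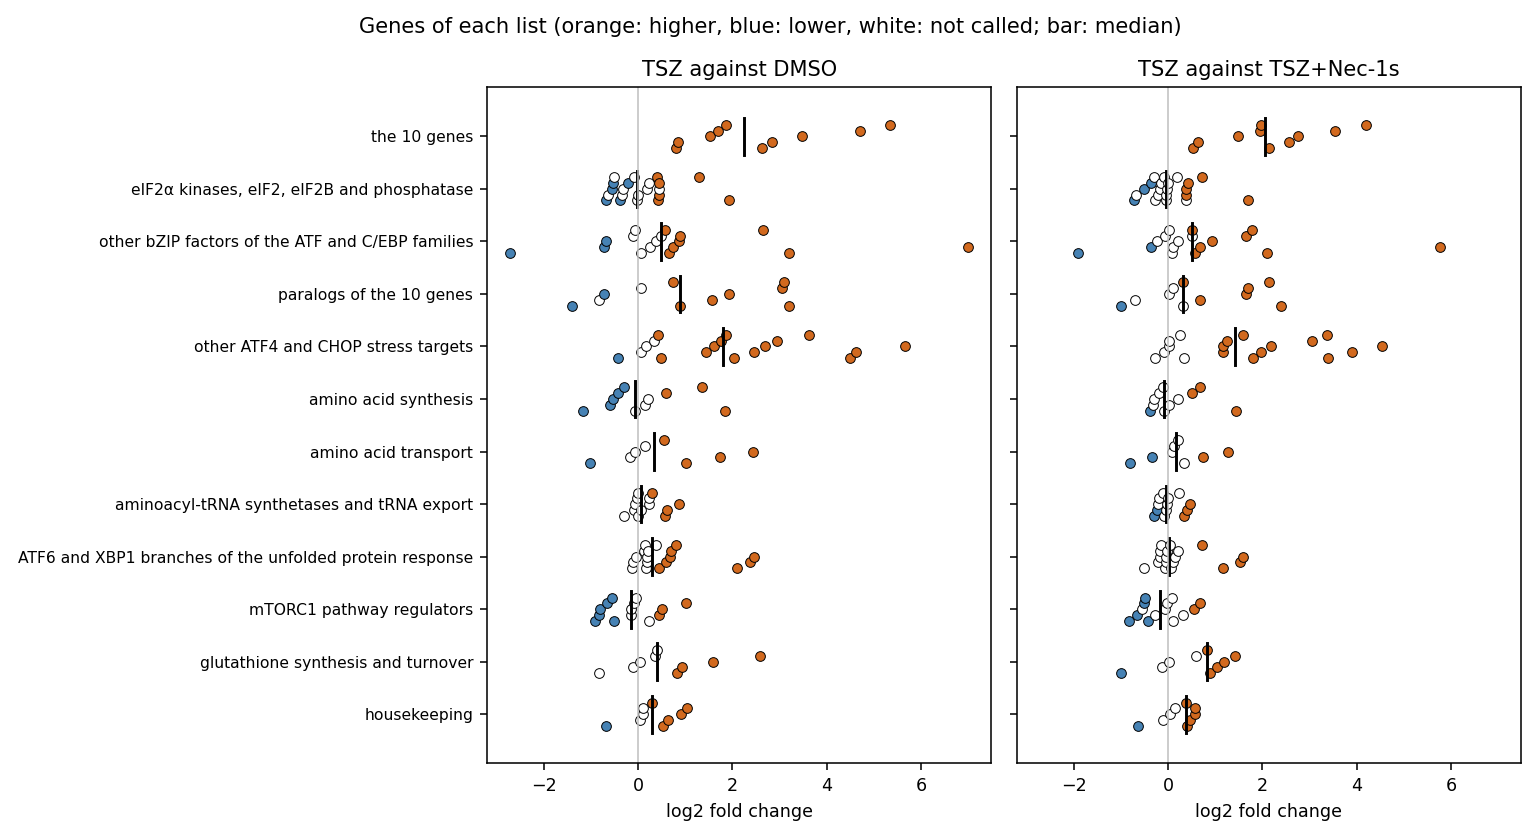
Each point is the log2 fold change of 1 tested gene of a list, in TSZ against DMSO on the left and against TSZ+Nec-1s on the right, orange where higher and blue where lower at an adjusted p under 0.05, with the list's median as a bar. The 10 genes (medians 2.25 and 2.06) and the other ATF4 and CHOP stress targets (1.80 and 1.43) lie to the right of 0, and amino acid synthesis (-0.07 and -0.08) centres near it.

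Over the 12 libraries, the genes whose log2 normalized reads followed ATF4 most closely by Pearson r among 9893 genes were FDFT1 (0.999), POLR1D (0.998), CSTB (0.997), FOS (0.996) and FDPS (0.995). For DDIT3 they were OSGIN1 (0.995), POLR1D, CSTB, FDFT1 and OSER1 (each 0.994). These values describe libraries in which TSZ forms 1 cluster and the other 9 libraries another, and libraries of a group share their treatment, so r rests on the step between the clusters. FDFT1 and FDPS encode enzymes of sterol synthesis, FOS a subunit of AP-1, CSTB an inhibitor of cathepsins, POLR1D a subunit of RNA polymerases I and III, and OSGIN1 and OSER1 proteins named for oxidative stress. The closest to ATF4, FDFT1, had means of 2128 normalized reads in DMSO, 2247 in TNFα, 4408 in TSZ and 2180 in TSZ+Nec-1s.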

How the data were processed

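PolyA RNA of 12 HT-29 libraries was sequenced as single-end reads, and samples were grouped by their titles. Reads were aligned by the authors to the hg38 genome (STAR), counted per gene with HTSeq (intersection-strict, without strand) and scaled with DESeq. The extraction reagent and library kit differ between the labels and the paper. The authors deposited 6 tables, 1 per pair of groups, whose values used here are a signal, the mean scaled count of each group. The fold, log2 and p-value columns that the authors deposited were not used.

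A group mean is the sum of 3 whole reads divided by size factors and is given to 15 digits, so the reads of each library were solved for 99.7% to 99.9% of genes above 0 in a group, and for all 10 genes. For 561 to 788 genes in a group the solution assumed that each library lay within 4 or 2 times the group mean, either way. These included ATF4 in every group, and PPP1R15A, DDIT4 and CEBPB in TSZ. limma 3.58.1 (voom, R 4.3.3) was fitted to the 12 libraries and 4 groups, for genes averaging 10 or more normalized reads, with Benjamini-Hochberg adjustment and a threshold of 0.05. The recovery and the fit were tested on simulated data. Symbols were matched to GENCODE v44 of hg38, 23161 directly and 1384 by an older symbol, with 1940 unmatched. Motifs were read from the RefSeq start-site table. The 10 genes and the 11 gene lists were chosen with earlier results of these data known. The genes named are the 10 genes, in each list the 3 most changed in TSZ against DMSO and the 2 most changed in TSZ against TSZ+Nec-1s that passed, and the 5 genes most like ATF4 and DDIT3, other than those said to be named after their values were seen. A gene that this rule names is not reported here. Python 3.11.15 with numpy 2.4.6, pandas 2.3.3 and matplotlib 3.10.9 was used elsewhere. Alternatives were other scalings, filters and weights, fits of 2 groups, GC correction and leaving out libraries.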

Additional observations from a re-analysis of the deposited data

How the results depend on the processing

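The count of 10 higher genes in TSZ against DMSO, TNFα and TSZ+Nec-1s was 9 or 10 under each alternative, VLDLR being the gene lost. No paired analysis was possible because the deposited tables carry no replicate numbers. VLDLR lost its call with total reads as scale (0.40 against DMSO, 0.49 against TNFα and 0.20 against TSZ+Nec-1s), and against TSZ+Nec-1s also with the upper quartile (0.47), a minimum mean of 1 (0.53), limma-trend (0.52) and a fit of the 2 groups (0.53). ASNS against DMSO moved from 0.84 to 0.43 with total reads as scale and stayed called. The number of genes higher in TNFα against DMSO was 1 to 2 when each library was left out, and 1 gene was lower with the GC trend removed (TRIB3, -0.26), beside 5.27% of all genes. In TSZ+Nec-1s against DMSO 2 genes were lower without the 3 libraries of low rho (23.1% of all genes, in place of 5.77%), and 0 to 1 when each library was left out. In TSZ+Nec-1s against TNFα 0 genes were higher with the upper quartile, a minimum mean of 1 or limma-trend, and 0 to 0 when each library was left out, whereas 2 were higher in a fit of the 2 groups or without the 3 libraries of low rho, ASNS being the second, where 17.0% and 22.1% of all genes were higher in place of 1.09%.

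The sign turned for values that did not pass in the fit to all 12 libraries, nor under the settings that turned them; SESN2 in TSZ+Nec-1s against DMSO was called lower (-0.36) without the 3 libraries of low rho. In TNFα against DMSO these were ATF4 (-0.02 with the GC trend removed, -0.06 to 0.15 leaving out libraries), DDIT3 (-0.06 without the 3 libraries, -0.12 to 0.26 leaving out libraries), CHAC1 (-0.30 to 0.12) and VLDLR (0.03 with the GC trend removed, 0.10 without the 3 libraries, -0.13 to 0.06 leaving out libraries). In TSZ+Nec-1s against DMSO these were ATF4 (-0.03 with total reads, -0.01 with the upper quartile, -0.08 without the 3 libraries), DDIT3 (-0.03, -0.001 and -0.15 in the same order), SESN2 (0.03 with the GC trend removed) and CHAC1 (-0.06 without the 3 libraries). Leaving out libraries gave -0.08 to 0.13 for ATF4, -0.16 to 0.22 for DDIT3, -0.36 to 0.08 for SESN2 and -0.06 to 0.36 for CHAC1 there. In TSZ+Nec-1s against TNFα the GC correction gave 0.18 for ATF4, 0.09 for DDIT3 and 0.07 for TRIB3, and leaving out libraries gave -0.09 to 0.03 for ATF4 and -0.11 to 0.09 for DDIT3. The cause of these turns was not tested.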

Other observations

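Paralogs of the 10 genes, which share a fold or function with them, moved in either direction. Of 13 paralogs 11 were tested, with 7 higher and 2 lower in TSZ against DMSO and 6 higher and 1 lower in TSZ against TSZ+Nec-1s (7 and 4, and 5 and 3, with total reads as scale). TRIB1, a pseudokinase like TRIB3, had 1570, 1580 and 1348 normalized reads in DMSO, 2533, 2151 and 2472 in TNFα, 12115, 13090 and 13079 in TSZ, and 2871, 2881 and 2964 in TSZ+Nec-1s. Its log2 fold change of TSZ against DMSO was 3.09 ± 0.09 (adjusted p = 3.4e-11), beside 1.69 for TRIB3, and unlike TRIB3 it was also higher in TNFα against DMSO, at 0.67 ± 0.09 (adjusted p = 8.7e-04).

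SESN1 and CHAC2, chosen after their values were seen, moved opposite to SESN2 and CHAC1. SESN1, another sestrin, had 147, 236 and 171 normalized reads in DMSO and 82.1, 42.9 and 88.1 in TSZ, a log2 fold change of -1.41 ± 0.26 (adjusted p = 6.9e-04), and all TSZ libraries were below all DMSO libraries. It did not pass in TSZ against TSZ+Nec-1s, at -0.70 ± 0.27 (adjusted p = 0.0562). CHAC2, which also cleaves glutathione, had 98.7, 59.8 and 44.0 normalized reads in TSZ and 137, 101 and 155 in TSZ+Nec-1s, at -0.99 ± 0.34 (adjusted p = 0.0321). Against DMSO CHAC2 had -0.83 ± 0.35 (adjusted p = 0.0622).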
